A study of Mus musculus with 8 samples.

Results

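The genes described here are 56 genes whose products copy DNA or divide the cell, 26 of S phase and 30 of mitosis, chosen by gene symbol from a list set with earlier results of these data known. All 56 were found among the 22518 genes of the deposited table, and 54 had a mean of at least 1 FPKM (fragments per kilobase of transcript, scaled to library size) over the 8 hearts and were tested, among 11390 genes tested in all. The hearts came from C57BL/6 mice at postnatal day 12: 4 were wild type littermates and 4 were from mice with an endothelial knockout of PHD2 and PHD3, the prolyl hydroxylases encoded by Egln1 and Egln3 that mark hypoxia-inducible factors for degradation. Neither the promoter driving the deletion nor the alleles are given in the sources used here. No label ties a library to its own animal, so p-values measure only the spread between these samples, which may be technical.

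Cells about to divide first load the MCM helicase at replication origins, then open S phase through cyclin E and the transcription factor E2F1, copy their DNA, and enter mitosis through cyclin B and CDK1. S phase genes are switched on largely by E2F factors, and mitotic genes largely later in the cycle by complexes that bind the cell cycle homology region (CHR) of their promoters. In the mouse heart, cardiomyocytes leave the cell cycle in the first weeks after birth, while endothelial cells, fibroblasts and other cells go on dividing at lower rates. In RNA from a whole heart, fewer dividing cells and less of these RNAs per dividing cell cannot be told apart.

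The S phase and mitosis genes differed far more between the knockout hearts than between the wild type hearts, and knockout replicates 1 and 4 lay at the ends. In knockout replicate 1 all 54 tested members were above their knockout mean, against 49.6% of all genes tested. In knockout replicate 4 all 54 were below that mean, which includes replicate 4 itself, against 47.7%. The median over the members, on the log2(FPKM + 1) scale, stood 0.50 above the wild type mean in knockout replicate 1, 0.18 below it in replicate 2, 0.18 above it in replicate 3 and 1.11 below it in replicate 4. The wild type hearts stood between -0.16 and 0.11 on the same measure. Between genotypes, 0 of the 54 tested members rose and 2, Cenpf and Slbp, fell at an adjusted p under 0.05 by limma, against 6.15% of all genes tested raised and 6.01% lowered. The members lowered were 0 with no filter on low values (3% of all genes tested then lowered), 0 with the replicate number as a block (2.55%), 0 without both replicates 4 (4.68%) and 1 with a filter of at least 5 FPKM (6.86%).

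**Figure D1:**
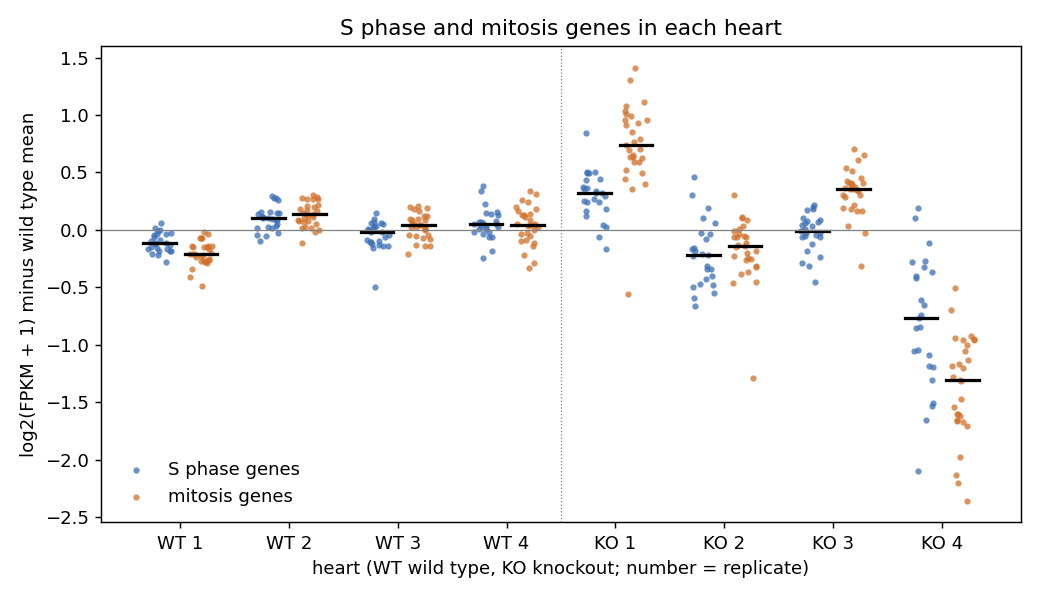
Each point is 1 tested gene in 1 heart, as log2(FPKM + 1) minus the mean of the 4 wild type hearts, for 25 S phase genes in blue and 29 mitosis genes in orange; black lines are medians. The mitosis medians run from -1.31 in knockout replicate 4 to 0.74 in knockout replicate 1, while the wild type medians stay between -0.21 and 0.14.

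Before the values, a few facts of the libraries bear on them. Sequencing depth is unknown, because the values were quantile normalised, so each library holds nearly the same set of values. Knockout replicate 4 carries a library number apart from the others, and wild type replicate 4 held lung transcripts, with 7 lung markers summing to 1244 FPKM there and to at most 1.14 FPKM in the other hearts. Neither targeted gene was reduced in RNA of the whole heart: Egln1 averaged 52.9 ± 5.40 FPKM (SD, n = 4) without and 57.4 ± 4.73 FPKM (SD, n = 4) with the knockout, and Egln3 averaged 28.2 ± 8.83 and 40.8 ± 8.58 FPKM. These values therefore do not check the genotype labels. The 6 cardiomyocyte markers read for the tissue label summed to 22198 to 23148 FPKM among the wild types and 18536 to 21887 FPKM among the knockouts. Values below are FPKM, means are ± SD with n = 4 per genotype, and a log2 change is the knockout mean minus the wild type mean of log2(FPKM + 1), ± SE, a scale that understates the change of low genes.

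The wild type hearts set the baseline. Wild type means of the 56 members ran from 0.926 FPKM for Cdc6 to 41.1 FPKM for Pcna, with a median of 4.73, against a median of 8.03 FPKM over all genes tested. Cdk1, Gmnn and Cks2 followed Pcna as the highest members over the 8 hearts. The highest wild type heart exceeded the lowest by 1.26-fold at the median of the tested S phase genes, with a range of 1.04-fold for Rrm1 to 2.07-fold for Tyms. For the mitosis genes the median was 1.42-fold, from 1.15-fold for Prc1 to 1.84-fold for Top2a. The small differences still had an order, since wild type replicate 1 lay below the wild type mean in 52 of 54 members and replicate 2 above it in 48 of 54. Over all genes tested, 50.4% lay above the mean in replicate 1 and 52.3% in replicate 2.

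The genes at the entry to S phase were low and differed less than most other members. Ccne1, the cyclin E that activates CDK2, measured 1.02, 1.97, 1.56 and 1.35 FPKM over wild type replicates 1 to 4, then 2.46, 1.63, 1.76 and 1.64 FPKM over knockout replicates 1 to 4. Only knockout replicate 1 stood outside the wild type range, and the change was 0.22 ± 0.14 (limma adjusted p = 0.321). E2f1, the transcription factor that switches on the replication genes, measured 3.10, 3.39, 2.79 and 2.95 FPKM over wild type replicates 1 to 4, then 4.20, 2.26, 3.26 and 1.42 FPKM over knockout replicates 1 to 4. Here knockout replicate 1 was above and replicates 2 and 4 below all wild type hearts, with a change of -0.16 ± 0.20 (limma adjusted p = 0.645). Ccne2, the other cyclin E, had means of 1.997 ± 0.346 and 2.08 ± 0.691 FPKM.

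The 6 subunits of the MCM2-7 helicase, which unwinds DNA at the fork, all took the same order in the knockout hearts, with replicate 1 highest, then 3, 2 and 4. Mcm2 measured 7.18, 8.65, 7.42 and 7.57 FPKM over wild type replicates 1 to 4, then 9.34, 4.48, 5.97 and 1.76 FPKM over knockout replicates 1 to 4. Mcm5 measured 4.38, 5.55, 4.56 and 5.17 FPKM over wild type replicates 1 to 4, then 6.46, 3.47, 4.85 and 1.04 FPKM over knockout replicates 1 to 4. For Mcm2 the knockout values lay both above and below the whole wild type range, and for Mcm5 replicate 3 lay within it. The ratio of knockout replicate 1 to replicate 4 was 5.30 for Mcm2, 6.24 for Mcm5, 3.77 for Mcm3, 3.22 for Mcm4, 3.17 for Mcm6 and 2.72 for Mcm7. None of the 6 passed the test, with changes of -0.60 ± 0.33 for Mcm2 (limma adjusted p = 0.267), -0.40 ± 0.34 for Mcm5 (0.468) and -0.49 ± 0.22 for Mcm7 (0.165). Without knockout replicate 1, Mcm7 was called lowered (change -0.66 ± 0.19, limma adjusted p = 0.0439), 1 of 3 members lowered in a fit that lowered 7.78% of all genes tested.

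Other licensing factors were mixed. Gmnn encodes geminin, which blocks a new round of MCM loading, and it stood apart, with 17.8, 20.7, 20.1 and 19.2 FPKM over wild type replicates 1 to 4 beside 27.9, 24.1, 18.6 and 22.4 FPKM over knockout replicates 1 to 4. It was the only tested member above its wild type mean in knockout replicate 4 besides Ccne1, and its change of 0.23 ± 0.12 did not pass the test (limma adjusted p = 0.208). Dtl, the ubiquitin ligase adaptor that removes licensing and repair factors in S phase, spanned 6.82-fold between knockout replicates 1 and 4. Cdc45, a helicase cofactor, had replicate 1 highest and replicate 2 lowest among the knockout hearts, 2.12-fold apart. Cdc6, which helps load the helicase, was under the level tested, averaging 0.926 ± 0.220 FPKM without and 0.774 ± 0.327 FPKM with the knockout.

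Among genes for nucleotide supply and the replication fork, the spread between knockout hearts differed widely. Rrm2, the regulated subunit of ribonucleotide reductase, measured 12.2, 12.6, 11.98 and 10.2 FPKM over wild type replicates 1 to 4, then 21.8, 7.42, 9.79 and 1.97 FPKM over knockout replicates 1 to 4, an 11.1-fold span. All knockout values fell outside the wild type range, 1 above and 3 below it, and the change was -0.52 ± 0.52 (limma adjusted p = 0.538). Rrm1, the other subunit of the same enzyme, spanned 2.35-fold. Pcna, the sliding clamp of the polymerases, measured 36.4, 44.4, 40.6 and 43.1 FPKM over wild type replicates 1 to 4, then 44.6, 27.7, 36.0 and 19.2 FPKM over knockout replicates 1 to 4 (change -0.42 ± 0.21, limma adjusted p = 0.223). The clamp loader subunit Rfc2, the flap endonuclease Fen1 and the uracil glycosylase Ung were 3 of the 4 members with the smallest spread within a genotype, with Gmnn. Ung measured 7.92, 11.3, 9.39 and 8.86 FPKM over wild type replicates 1 to 4, then 10.7, 10.8, 8.90 and 8.50 FPKM over knockout replicates 1 to 4, so that every knockout value lay inside the wild type range. Rfc2 was at 14.5, 16.7, 13.6 and 14.9 FPKM against 14.3, 13.0, 13.6 and 10.9 FPKM, and Fen1 at 4.42, 4.66, 4.01 and 5.06 against 5.21, 3.36, 4.54 and 3.58 FPKM. Knockout replicates 2 and 4 lay below every wild type heart in both genes, and replicate 1 of Fen1 lay above them. The primase subunit Prim1 spanned 5.62-fold between knockout replicates 1 and 4, and Pola1, the catalytic subunit of the polymerase it works with, 1.71-fold. Tipin, a fork protection factor, spanned 1.74-fold, and the thymidylate synthase Tyms 2.49-fold. In Tyms replicate 2 was the highest knockout heart, 2.52 times replicate 4. Pcna, Tyms, Ccnb1 and Ccnb2 have annotated pseudogenes named after them, and reads of such copies could have been divided by the authors' quantification, so their levels are less certain.

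Slbp, which binds the stem-loop of replication-dependent histone mRNAs, was the 1 S phase member that fell. It measured 10.7, 12.3, 12.9 and 12.4 FPKM over wild type replicates 1 to 4, then 10.6, 8.38, 8.51 and 6.20 FPKM over knockout replicates 1 to 4 (chromosome 5, 33634952 to 33652574 in mm10). The change was -0.49 ± 0.13 (limma adjusted p = 0.0437), and Slbp was the only tested member whose genotypes did not overlap, against 10.4% of all genes tested that were lower in every knockout heart. No member was higher in every knockout heart, against 10.3% of all genes tested. The margin was narrow, with 10.6 FPKM in knockout replicate 1 beside 10.7 FPKM in wild type replicate 1. The call was lost without any 1 of the wild type hearts or without knockout replicate 2 or 3, with an adjusted p of up to 0.116 without wild type replicate 2. Uhrf1, which carries DNA methylation through replication, and Chaf1b, a subunit of the histone chaperone CAF-1, spanned 6.46-fold and 3.92-fold between knockout replicates 1 and 4.

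The mitosis genes showed the wider separation. Mki67, the proliferation antigen that coats mitotic chromosomes, measured 4.05, 5.09, 5.08 and 6.30 FPKM over wild type replicates 1 to 4, then 8.55, 3.85, 6.49 and 0.930 FPKM over knockout replicates 1 to 4. Knockout replicates 1 and 3 were above all wild type hearts and replicates 2 and 4 below them, so the means of 5.13 ± 0.918 and 4.96 ± 3.30 FPKM hardly differed (change -0.26 ± 0.44, limma adjusted p = 0.734). Top2a, the topoisomerase that untangles sister chromatids, measured 7.91, 14.4, 10.3 and 14.5 FPKM over wild type replicates 1 to 4, then 19.8, 8.54, 11.8 and 1.44 FPKM over knockout replicates 1 to 4, a 13.8-fold span between knockout replicates 1 and 4. In this gene, which varied most among wild type hearts of the mitosis members, knockout replicates 2 and 3 lay within the wild type range.

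Cdk1, the kinase that drives entry into mitosis, and its partners moved alike from heart to heart. Cdk1 measured 17.3, 24.6, 19.96 and 23.1 FPKM over wild type replicates 1 to 4, then 42.8, 21.1, 31.0 and 7.91 FPKM over knockout replicates 1 to 4. Ccnb1, the cyclin B partner of Cdk1, measured 5.16, 6.06, 6.02 and 6.05 FPKM over wild type replicates 1 to 4, then 15.8, 7.42, 10.1 and 1.24 FPKM over knockout replicates 1 to 4. So 3 knockout hearts were above all wild type hearts for Ccnb1 and the remaining one was below them all. Its change was 0.18 ± 0.53 (limma adjusted p = 0.858), and without knockout replicate 4 it was 0.77 ± 0.20 (limma adjusted p = 0.0361), which made it the 1 member called raised in that fit, where 5.79% of all genes tested were. In that fit Slbp was the 1 member lowered, against 6.13% of all genes tested. Ccna2, cyclin A, measured 6.90, 8.75, 8.44 and 9.23 FPKM over wild type replicates 1 to 4, then 16.7, 6.80, 11.4 and 1.12 FPKM over knockout replicates 1 to 4. Cks2, a small subunit of the CDK1 complex, was at 12.04, 16.8, 15.9 and 15.2 FPKM against 31.0, 13.5, 19.6 and 5.90 FPKM. All 5 genes of this group, Ccnb2 included, had knockout replicate 1 above and replicate 4 below every wild type heart, and the ratio of these replicates ran from 5.25 for Cks2 to 14.9 for Ccna2.

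The kinases and ubiquitin ligases of mitosis kept this order too. The spans between knockout replicates 1 and 4 were 7.80-fold for Aurka, 4.65-fold for Aurkb, 5.99-fold for Plk1 and 6.45-fold for Tpx2, the activator of Aurora A. Birc5 and Cdca8, which anchor Aurora B at centromeres, spanned 7.14-fold and 12.3-fold. Ttk, a checkpoint kinase, was just too low to be tested, averaging 1.03 ± 0.0741 FPKM without and 0.945 ± 0.549 FPKM with the knockout. Ube2c, the ubiquitin-conjugating enzyme of the anaphase-promoting complex, measured 10.3, 15.3, 13.0 and 12.1 FPKM over wild type replicates 1 to 4, then 35.1, 13.6, 16.9 and 2.45 FPKM over knockout replicates 1 to 4. It had the largest spread within a genotype of all tested members, and knockout replicate 1 alone was 2.77 times the wild type mean. Cdc20, which activates that complex, spanned 5.37-fold and Cdca3, a trigger of mitotic entry, 9.47-fold.

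Among kinetochore and checkpoint genes, Cenpf went its own way. Cenpf encodes a large protein of the outer kinetochore and nuclear envelope (chromosome 1, 189640606 to 189688086 in mm10). It measured 4.18, 5.28, 5.16 and 3.32 FPKM over wild type replicates 1 to 4, then 2.68, 1.22, 3.35 and 1.81 FPKM over knockout replicates 1 to 4, so that knockout replicate 3 was highest and replicate 2 lowest. The change was -0.78 ± 0.21 (limma adjusted p = 0.0396), although knockout replicate 3 overlapped wild type replicate 4. The call was lost without wild type replicate 1, 2 or 3 or without knockout replicate 2 or 4, with an adjusted p of up to 0.119 without wild type replicate 2. The other 5 genes of this group took the shared order, with spans of 2.99-fold for the checkpoint protein Bub1b, 5.96-fold for the kinesin Cenpe, 10.2-fold for Nuf2 and 11.2-fold for its partner Ndc80, and 11.3-fold for Bub1.

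All 7 genes of spindle motors and cytokinesis also took that order. Prc1, which bundles the microtubules of the central spindle, measured 9.51, 10.9, 9.72 and 10.1 FPKM over wild type replicates 1 to 4, then 18.9, 8.30, 11.5 and 1.41 FPKM over knockout replicates 1 to 4. The wild type hearts differed by 1.15-fold at most and the knockout hearts by 13.4-fold. Hmmr, a spindle assembly factor, had the widest ratio of any member, 17.6 between knockout replicates 1 and 4, at 6.80 and 0.385 FPKM. The spindle kinesin Kif11, the central spindle kinesins Kif20a and Kif23, the microtubule binder Nusap1 and the cytokinetic ring protein Anln spanned 4.13-fold (Nusap1) to 7.56-fold (Kif23).

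**Figure D2:**
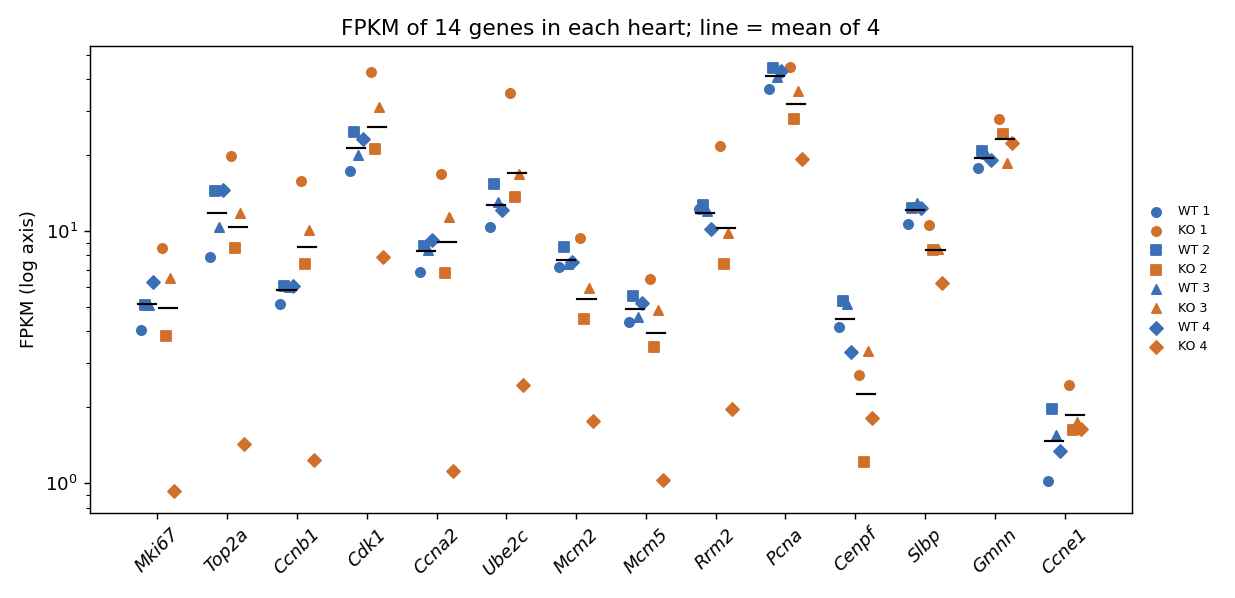
FPKM on a log axis of 14 members; each marker is 1 heart, with wild type in blue and knockouts in orange, marker shape gives the replicate, and each short black line marks a group mean. Knockout replicates 1 and 4 mark the top and bottom of most genes, as for Ube2c at 35.1 and 2.45 FPKM, while Gmnn, Ccne1, Slbp and Cenpf are narrower.

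The order of the knockout hearts was shared by nearly all members. From highest to lowest it was replicate 1, 3, 2 and 4 in 46 of 54 tested members, against 8.49% of all genes tested, and in 28 of 29 mitosis genes, with Cenpf as the exception. The S phase genes outside this order were Tyms, Ccne1, Cdc45, Gmnn, Ung, Pola1 and Fen1. Knockout replicate 4 was below all 4 wild type hearts in 51 of 54 members, against 35% of all genes tested, with Ccne1, Gmnn and Ung as the exceptions. Knockout replicate 1 was above all 4 wild type hearts in 48 of 54 members (28.1% of all genes tested). In knockout replicate 4, 27 of 54 members were at least 1 below the knockout mean on the log2 scale, against 0.887% of all genes tested, and in knockout replicate 1, 9 of 54 were at least 1 above it, against 0.272%. Members of one pathway share their cells and libraries, so these are not counts of independent genes.

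Co-variation within a genotype was also read from pairs of genes. For each pair of tested members it was asked in how many hearts both lay on the same side of their genotype mean. Among the 1431 pairs this held in 84.4% of knockout hearts and in 69.6% of wild type hearts, against 50.1% and 50.2% for pairs of all genes tested. Both genes lay on the same side in all 4 knockout hearts in 45.6% of the pairs, and in all 4 wild type hearts in 23.3%. Over all genes tested these shares were 9.86% and 10.9%. Mitosis genes paired more closely than S phase genes, at 88.3% against 80.2% of knockout hearts and 73.9% against 66.2% of wild type hearts. Among the wild type hearts, replicate 1 was the lowest in 40 of 54 members and replicate 2 the highest in 30, against 26.2% and 24.7% of all genes tested. Replicate numbers do not pair hearts of the 2 genotypes, so this order cannot be compared with the knockout one.

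The SD on the log2 scale gave the same picture. Its median over the tested members was 0.16 in wild type and 0.72 in knockout hearts, and for all genes tested 0.12 and 0.16. The knockout hearts had the larger SD in 52 of 54 members, the exceptions being Ung and Ccne1, and in 66.7% of all genes tested. Without knockout replicate 4 the median knockout SD of the members was 0.37, and the knockout SD was larger than that of the wild type hearts in 49 of 54 members, against 51.9% of all genes tested.

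**Figure D3:**
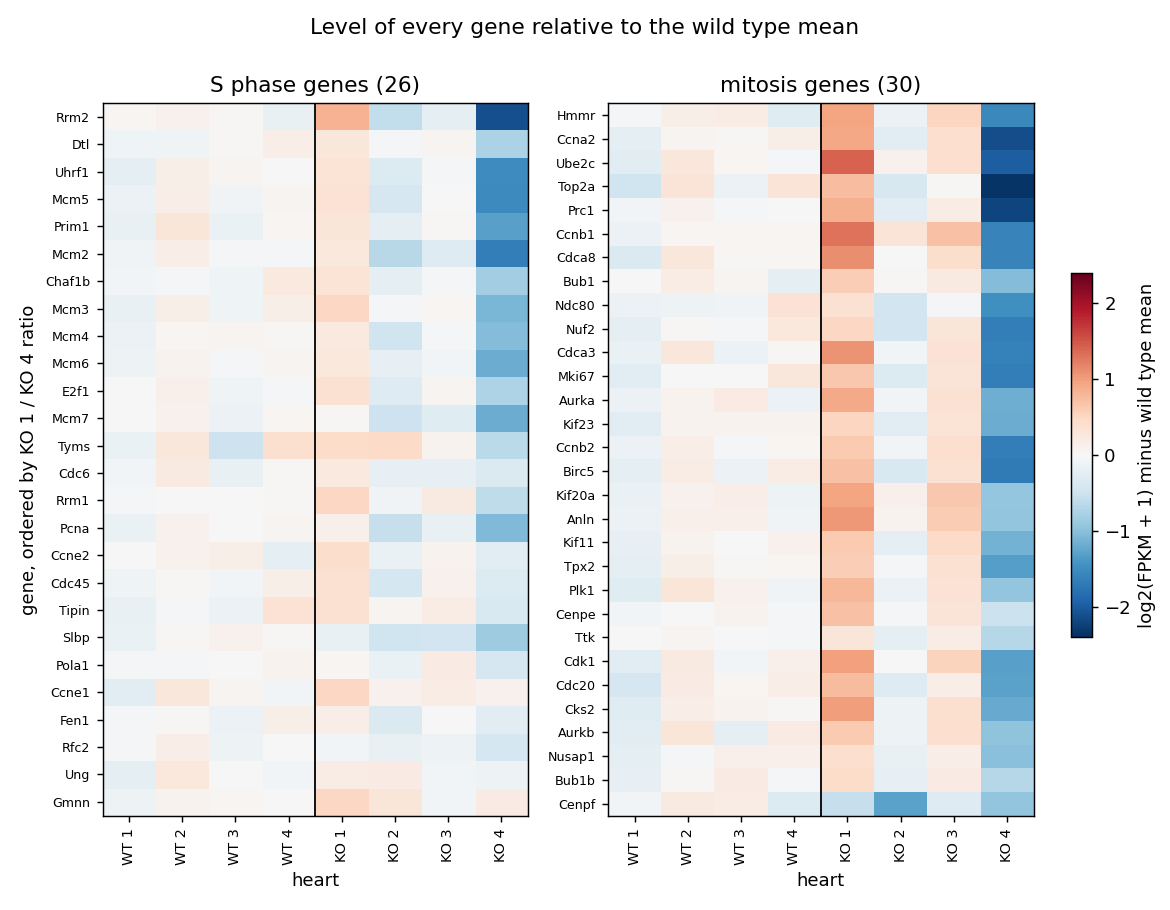
Colour gives log2(FPKM + 1) minus the wild type mean for all 26 S phase and 30 mitosis genes (rows, ordered by the ratio of knockout replicate 1 to replicate 4) in the 8 hearts (columns). Knockout replicate 1 is high and replicate 4 low in most rows. The bottom rows, at ratios of 1.48 and 1.25, depart from this: Cenpf is low in both replicates and Gmnn high in both.

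Mitosis genes and S phase genes did not move by the same amount. The median ratio of knockout replicate 1 to replicate 4 was 7.17 for the mitosis genes (range 1.48 to 17.6) and 2.49 for the S phase genes (range 1.25 to 11.1), against 0.991 over all genes tested. At least a 4-fold ratio was found in 27 of 29 mitosis genes and 6 of 25 S phase genes, and in 1.29% of all genes tested. Within each heart, the median of the mitosis genes minus that of the S phase genes, both relative to the wild type mean, was 0.42 in knockout replicate 1, 0.08 in replicate 2, 0.37 in replicate 3 and -0.54 in replicate 4. In the wild type hearts it lay between -0.09 and 0.06. With a pseudocount of 0.1 FPKM the knockout values were 0.44, 0.11, 0.44 and -0.96, and with 5 FPKM 0.34, 0.07, 0.22 and -0.20, so their signs held while their size moved. In knockout replicate 3, 24 of 29 mitosis genes but 2 of 25 S phase genes were above all wild type hearts, against 30.9% of all genes tested. In knockout replicate 2, 17 of 25 S phase genes and 10 of 29 mitosis genes were below all wild type hearts, against 31.5% of all genes tested. This difference between the phases was not tested.

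**Figure D4:**
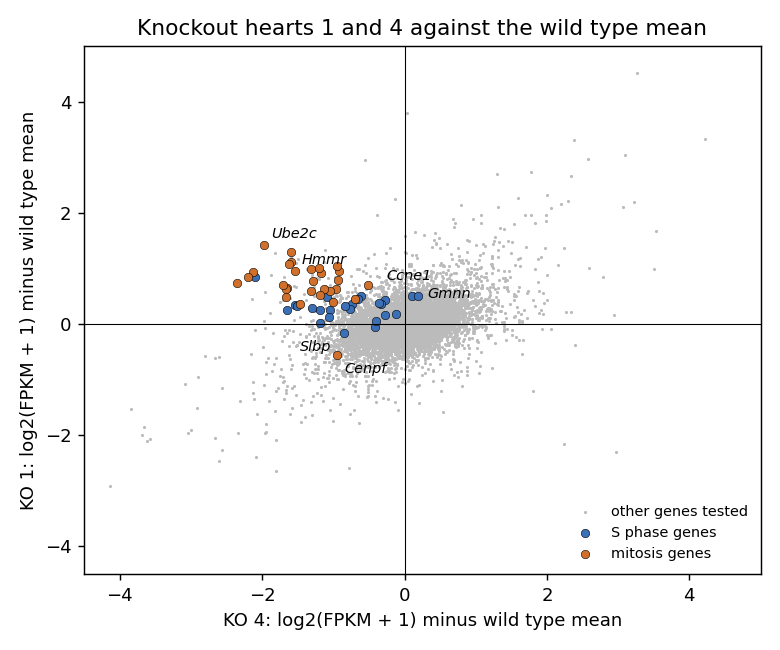
Knockout replicate 1 against knockout replicate 4, each as log2(FPKM + 1) minus the wild type mean, for the tested S phase genes (blue), mitosis genes (orange) and the other genes tested (grey). Most members lie in the upper left, high in replicate 1 and low in replicate 4, with Gmnn and Ccne1 to the right of 0 and Cenpf, Slbp and Rfc2 below 0 on both axes.

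Promoter sequences are given as examples of each phase, for Ccnb1 and Cdk1, the pair that drives mitosis, and for Mcm2 and Mcm5 of the helicase. They come from RefSeq on GRCm38.p6 and hold 250 bases before to 50 after the start of the gene, 5′ to 3′ on the strand of the gene. The table held 47 of the 56 members. Capitals mark the letters searched on both strands: the CHR motif TTTGAA, the CCAAT box, and the E2F motifs TTTCCCGC, TTTCGCGC, TTTGCCGC and TTTGGCGC. The windows are chr13:100786437-100786736 (minus strand) for Ccnb1, chr10:69352863-69353162 (minus) for Cdk1, chr6:88898731-88899030 (minus) for Mcm2 and chr8:75109259-75109558 (plus) for Mcm5.
Ccnb1: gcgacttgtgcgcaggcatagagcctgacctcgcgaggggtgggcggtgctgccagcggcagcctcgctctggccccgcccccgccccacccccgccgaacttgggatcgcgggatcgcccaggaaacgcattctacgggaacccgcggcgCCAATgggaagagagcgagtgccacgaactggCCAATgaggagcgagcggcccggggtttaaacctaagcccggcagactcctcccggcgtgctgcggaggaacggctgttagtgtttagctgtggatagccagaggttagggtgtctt
Cdk1: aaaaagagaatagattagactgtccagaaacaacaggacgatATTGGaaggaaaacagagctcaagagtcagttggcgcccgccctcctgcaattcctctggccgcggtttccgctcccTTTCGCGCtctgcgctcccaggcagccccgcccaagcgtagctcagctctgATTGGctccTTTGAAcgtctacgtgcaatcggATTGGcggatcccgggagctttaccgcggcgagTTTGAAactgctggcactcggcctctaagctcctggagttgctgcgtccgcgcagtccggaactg
Mcm2: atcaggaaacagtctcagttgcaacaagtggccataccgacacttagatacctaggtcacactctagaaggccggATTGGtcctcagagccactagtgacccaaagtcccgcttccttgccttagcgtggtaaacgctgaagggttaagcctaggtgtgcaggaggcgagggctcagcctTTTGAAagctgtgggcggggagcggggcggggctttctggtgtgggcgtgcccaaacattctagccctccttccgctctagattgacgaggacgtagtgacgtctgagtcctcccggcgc
Mcm5: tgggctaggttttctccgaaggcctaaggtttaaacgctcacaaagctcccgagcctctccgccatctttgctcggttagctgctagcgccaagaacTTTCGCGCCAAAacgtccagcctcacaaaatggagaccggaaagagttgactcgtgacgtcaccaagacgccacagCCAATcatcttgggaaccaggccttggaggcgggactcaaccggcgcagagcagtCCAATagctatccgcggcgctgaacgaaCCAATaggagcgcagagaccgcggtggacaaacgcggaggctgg

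In the promoter of Cdk1, TTTGAA stood at -71 to -66 and at -15 to -10 from the start, and TTTCGCGC at -131 to -124. In that of Ccnb1, CCAAT stood at -99 to -95 and -67 to -63, and neither TTTGAA nor an E2F motif was found. The promoter of Mcm5 held TTTCGCGC at -153 to -146, which overlaps TTTGGCGC on the other strand at -149 to -142, and 3 CCAAT boxes. That of Mcm2 held TTTGAA at -70 to -65 and no E2F motif. Over the members, TTTGAA was found in 20 of 27 promoter windows of mitosis genes (74.1%) and 3 of 24 windows of S phase genes (12.5%), against 11.7% of the windows of genes tested and 17.9% of all windows. An E2F motif was found in 8 of 24 windows of S phase genes (33.3%) and 1 of 27 of mitosis genes (3.70%), against 3.97% of the windows of genes tested and 2.26% of all windows. A CCAAT box was found in 81.5% of mitosis and 66.7% of S phase windows, against 37.7% of the windows of genes tested and 37.4% of all windows. These are matches of letters in a window and do not show that a site is bound. Their part in the differences between hearts was not tested.

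Against the genotype, the members as a list was not shifted to one side in a way that held without single knockout hearts. The median log2 change over the 54 tested members was -0.11, and 39 were below and 15 above 0, beside a median of -0.01 over all genes tested. The median was -0.35 without knockout replicate 1 and 0.20 without knockout replicate 4. The mean FPKM of the other knockout hearts, with replicate 4 left out, was above the wild type mean in 27 of 29 mitosis genes and 18 of 25 S phase genes. The same count over all genes tested was not made, so these counts have no share to be read against. The margin was slight in some, as for Mcm5 (4.93 against 4.91 FPKM) and Mcm6 (9.40 against 9.39 FPKM). Heart by heart, the S phase median relative to the wild type mean was 0.32 in knockout replicate 1, -0.22 in replicate 2 and -0.01 in replicate 3. For the mitosis genes it was 0.74, -0.14 and 0.36, so not every remaining knockout heart was raised.

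Other cell cycle genes, not among the members, ranked the knockout hearts in a like way. Among 31 further replication genes tested, 0 were called raised (6.15% of all genes tested) and 1 lowered (6.01%), leaving 30 not called. Among 36 further mitosis genes tested, 0 were raised and 1 lowered, leaving 35, beside those same shares of all genes tested. The lowered ones were Pold1, the catalytic subunit of DNA polymerase delta (change -0.69 ± 0.19, limma adjusted p = 0.0416), whose call was lost in 9 of 16 alternative fits with an adjusted p of up to 0.122, and Pttg1. Pttg1 encodes securin, which holds back the separation of sister chromatids, and measured 84.3, 87.4, 87.1 and 76.8 FPKM over wild type replicates 1 to 4, then 68.0, 60.4, 62.3 and 57.4 FPKM over knockout replicates 1 to 4. Every knockout heart was below every wild type heart (change -0.43 ± 0.08, limma adjusted p = 0.00943), and the call held in all 17 alternative fits. Knockout replicate 4 was the lowest knockout heart in 36 of 36 mitosis genes and 25 of 31 replication genes of these lists, against 32.1% of all genes tested. The order of replicates 1, 3, 2 and 4 held in 34 and 16 of them, against 8.49%. Over all genes tested, 147 were in knockout replicate 1 at least 4 times as high as in replicate 4, counting 9 that were above 0 in replicate 1 and listed at 0 in replicate 4. Of the 147, 33 were members, 24 were on these 2 lists, 2 were on the list of regulators and 88 were on none of these lists. The lists do not hold every gene of the cell cycle, so the 88 are not a count of genes outside it. They include Cenpm, Cdkn3 and Cep55 as well as Nppb and Ankrd1.

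Among 23 tested regulators of the cycle, 1 rose and 0 fell, against 6.15% of all genes tested raised and 6.01% lowered. Ccnd2, cyclin D2, which links growth signals to the start of the cycle, measured 21.4, 16.5, 20.8 and 15.6 FPKM over wild type replicates 1 to 4, then 34.5, 27.4, 30.7 and 25.4 FPKM over knockout replicates 1 to 4 (change 0.64 ± 0.13, limma adjusted p = 0.0133), with no overlap. Foxm1 and Mybl2, activators of mitotic genes, did not pass the test. Foxm1 averaged 2.94 FPKM among the wild types, beside 4.58, 2.17, 3.96 and 0.623 FPKM over knockout replicates 1 to 4, which is the order of the members. Of 9 tested inhibitors of the cycle, 2 rose, against 6.15% of all genes tested. The CDK inhibitor Cdkn1a measured 50.5, 33.4, 31.0 and 30.2 FPKM over wild type replicates 1 to 4, then 69.8, 70.9, 67.2 and 95.2 FPKM over knockout replicates 1 to 4 (change 1.06 ± 0.17, limma adjusted p = 0.00551), with knockout replicate 4 highest. Ccng1, a cyclin G induced by p53, rose by 0.73 ± 0.16 (limma adjusted p = 0.0205), a call lost in 3 of 17 alternative fits with an adjusted p of up to 0.0776.

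Markers of other cell types were read beside these values. In knockout replicates 1 to 4 the summed level of 6 endothelial markers was 357, 301, 331 and 313 FPKM, that of 6 fibroblast markers 584, 604, 552 and 431 FPKM and that of 6 macrophage markers 148, 135, 131 and 149.9 FPKM. The wild type hearts ranged from 344 to 363, from 698 to 802 and from 107 to 123 FPKM. Single markers moved apart within these sums. Of the 6 endothelial markers 0 were called raised and 2 lowered, and of the 6 fibroblast markers likewise 0 and 2. Over all genes tested, 6.15% were raised and 6.01% lowered. In every knockout heart 3 endothelial markers were lower and 1 higher than in all wild type hearts, and 2 fibroblast markers were lower. Those shares were 10.4% lower and 10.3% higher over all genes tested. The higher macrophage sums rested on Lyz2, the lysozyme gene of myeloid cells, with 37.7 to 43.6 FPKM among the wild types beside 60.5, 61.3, 62.4 and 79.5 FPKM over knockout replicates 1 to 4 (change 0.66 ± 0.10, limma adjusted p = 0.00453). Without Lyz2 the other 5 macrophage markers summed to 87.6, 74.1, 69.1 and 70.5 FPKM over knockout replicates 1 to 4, beside 69.4 to 80.1 FPKM among the wild types, and none of the 5 passed the test. For 5 erythroid markers the sums were 649, 1105, 1568 and 192 FPKM in knockout replicates 1 to 4 and 1209 to 6170 FPKM in the wild type hearts, so that replicate 4 was lowest there too but replicate 1 was not highest. For 6 smooth muscle and pericyte markers the sums were 909, 644, 921 and 666 FPKM in knockout replicates 1 to 4. The wild type hearts ranged from 651 to 1098 FPKM. Knockout replicates 1 and 3 were above replicates 2 and 4 there, as in most members, but replicate 3 was highest and replicate 2 lowest. Of these 6 markers 1 was called raised (6.15% of all genes tested) and 0 lowered (6.01%). For 8 lymphocyte and thymus markers no heart was above 3.23 FPKM in sum. Adipose genes, a list added after the values were seen (Adipoq, Cfd, Cidec, Plin1, Ucp1 and Lep), summed to 4.39, 47.9, 29.6 and 0 FPKM over knockout replicates 1 to 4, which is not the order of the members, and to 14.9, 0.132, 1.13 and 24.2 FPKM over wild type replicates 1 to 4, so that both genotypes varied widely. Of all genes tested, those with the longest transcripts (top 25% by length) deviated by a median of 0.05 from the knockout mean in knockout replicate 4 and by -0.03 in replicate 1, and those with the shortest (bottom 25%) by -0.03 and 0.03. The part of cell composition, library or RNA quality in the spread of the members was not tested.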

How the data were processed

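Total RNA of whole hearts went into TruSeq libraries, 4 per genotype (per the labels' protocols). The submitters' processing notes name TopHat2, Cufflinks and mm10, without versions. The deposited values carry no unit in the file and were read as FPKM made by the authors, then quantile normalised: the 39 highest ranks hold 1 value in all columns, and no 2 columns were identical. Quantile normalisation removes depth and any change in the total, so counting error cannot be given. Whether counting used strand is not stated in those notes, so overlapping and antisense genes cannot be separated.

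Members and lists were chosen with earlier results of these data known. The 11390 genes whose mean reached 1 FPKM were compared on log2(FPKM + 1) with limma 3.58.1 under R 4.3.3 (lmFit, eBayes with trend and robust), no covariate, all 8 samples, Benjamini-Hochberg over 11390 genes, called at adjusted p under 0.05. All 56 members could be named; values in every heart are given for 20: those called, 10 fixed genes, the 4 highest and the 4 with the largest and the 4 with the smallest spread. Coordinates are from GENCODE M21. On simulated data with the same 11390 genes, the fit recovered 58.2% of genes changed 1.5-fold, 86.6% changed 2-fold and 98.5% changed 4-fold, with 8 false calls among 170. The simulated noise was drawn for each gene on its own, with the same SD in both genotypes, and the lowest genes were not changed. The members instead shared their spread, with a median SD of 0.72 among the knockout hearts against 0.16 over all genes tested. These rates therefore do not hold for the members. Descriptions used pandas 2.3.3 and matplotlib 3.10.9 under Python 3.11.15. Alternatives changed the pseudocount, filter, scaling, variance model, weights and replicate block or left out samples. No count model was fitted to these normalised values.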

Additional observations from a re-analysis of the deposited data

Results flagged for a closer look

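In 40 groups of 4 hearts, for the members whose values are given in full, 2 had 1 heart set far from the others by the gap to its neighbour over the range of the group, where chance sets apart about 1 group in 20. The share found is thus the one chance gives. Ccne1 in knockout replicate 1, at 2.46 FPKM, was far above the other knockout hearts (gap 0.850 of the range). Ccnb1 in wild type replicate 1, at 5.16 FPKM, was below the other wild type hearts (gap 0.954 of the range). Both gaps were under 1 FPKM, and wild type replicate 1 lay below the wild type mean in 52 of 54 tested members, not in Ccnb1 alone.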

How the results depend on the processing

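The members called lowered were 2, and 0 with no filter, with the replicate block or without both replicates 4 (an alternative chosen after seeing the data), and 1 with a filter of at least 5 FPKM, which left out Cenpf. With 1 heart left out, 0 to 3 were lowered and 0 to 1 raised, while 2.53% to 7.78% of all genes tested were lowered and 2.52% to 8.2% raised. The median deviation of the members in each heart and the median log2 change moved by less than 1 SD of the hearts under every alternative run. The knockout hearts made that SD wide, so this is a weak check. With 1 heart left out, the median log2 change ran from -0.35 to 0.20 and so turned sign. The median deviation then ran from -0.39 to 0.18 in knockout replicate 2 and from 0.00087 to 0.58 in knockout replicate 3. The log2 change turned sign without both replicates 4 for Mki67 (0.30), Top2a (0.24), E2f1 (0.027), Prc1 (0.26), Ccna2 (0.41) and Ube2c (0.62), with array weights for Ccna2 (0.044) and Ube2c (0.26), with a pseudocount of 5 FPKM for Ube2c (0.085) and with 0.1 FPKM for Cks2 (-0.00015). None of these members passed the test in these fits. With 1 heart left out, the log2 change ran from -0.56 to 0.21 for Mki67, -0.90 to 0.13 for Top2a, -0.20 to 0.77 for Ccnb1, -0.25 to 0.51 for Cdk1, -0.98 to 0.0029 for Rrm2, -0.33 to 0.039 for E2f1, -0.32 to 0.42 for Cks2, -0.75 to 0.26 for Prc1, -0.66 to 0.36 for Ccna2, -0.49 to 0.64 for Ube2c and -0.017 to 0.14 for Ung. The replicate numbers did not pair the samples: the deviations of same-numbered hearts correlated between -0.23 and 0.10 across genes, and 1 of 4 numbers was the best match of its own. The block is given for completeness. Depth is unknown, and 4 hearts per genotype limit the precision. The causes of these changes were not tested.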
